A study of Mus musculus with 13 samples.

Results

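The pyruvate dehydrogenase complex (PDH) and the enzymes that switch it were followed in parametrial white adipose tissue (pmWAT), a visceral fat depot of female mice. The set held 10 genes of the 33618 identifiers in the count table, chosen by name and found by their Ensembl identifiers. They are the 5 PDH subunits *Pdha1*, *Pdhb*, *Dlat*, *Dld* and *Pdhx*, the 4 PDH kinases *Pdk1*, *Pdk2*, *Pdk3* and *Pdk4*, and the PDH phosphatase *Pdp1*. All 10 passed the filter on low counts. The study compared 7 control mice, *Lmna* fl/fl, with 6 *Lmna* iADKO mice, in 1 bulk RNA-Seq library per mouse. *Lmna* encodes the nuclear lamins A and C. All 13 mice were homozygous for an *Lmna* allele with loxP sites around internal exons, and the iADKO mice also carried 1 copy of *Adipoq*-CreERT2, a Cre that the adiponectin promoter expresses in adipocytes and that tamoxifen activates. The controls carried no Cre. Every mouse, control or iADKO, received tamoxifen at 50 mg/kg on 5 days at 12 to 14 weeks of age, was housed at 22 °C, and was dissected 2 weeks later.

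PDH is the mitochondrial machine that turns pyruvate, the end product of glycolysis, into acetyl-CoA, carbon dioxide and NADH. Its E1 enzyme (*Pdha1* and *Pdhb*) decarboxylates pyruvate, E2 (*Dlat*) passes the acetyl group to coenzyme A through lipoate arms, E3 (*Dld*) reoxidizes the lipoate, and *Pdhx* tethers E3 to the E2 core. The kinases phosphorylate the E1 alpha subunit and turn the complex off, and the phosphatases turn it back on. In white fat, acetyl-CoA made by PDH can leave the mitochondrion as citrate and feed fatty acid synthesis, and *Pdk4* is known as the kinase gene that fasting and fatty acids induce.

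Between 18854223 and 19776491 reads per library were counted on genes. *Lmna* itself ranged from 74.7 to 98.5 CPM (reads scaled to a common library size and normalized by the TMM method) in the libraries labelled fl/fl and from 80.1 to 109 CPM in those labelled iADKO, with means of 84.7 ± 7.51 (SD, n = 7) and 96.7 ± 11.5 (SD, n = 6). Its log2 fold change was 0.19 (standard error 0.079, edgeR quasi-likelihood adjusted p = 0.0785). The count is for the whole gene and cannot separate the floxed exons, and no decrease of *Lmna* marked the iADKO libraries, so every direction below rests on the labels alone. The tissue label was met by its markers, as all 8 adipocyte markers were detected in every library. Their summed level was 15973 to 23191 CPM in fl/fl and 9579 to 16082 CPM in iADKO, and all 8 were lower in iADKO by the edgeR test described below. Of 9 macrophage markers 7 were higher, with sums of 1533 to 2887 CPM in fl/fl and 2046 to 3511 CPM in iADKO, and 4 of 8 lymphocyte markers were higher. Of other lists, 3 of 5 brown adipocyte and 2 of 6 endothelial markers were lower and 2 of 4 epithelial markers were higher, with an epithelial sum of 171 CPM in iADKO 6 against 11.1 to 56.9 CPM in the other libraries. These marker counts stand beside 30.5% of all genes called by the same test, 16.3% lower and 14.1% higher. Mitochondrially encoded genes made up 2.84% to 5.07% of each fl/fl library and 2.39% to 3.99% of each iADKO library. In bulk tissue, fewer adipocytes and less RNA per adipocyte cannot be told apart, and the part of these marker shifts in the results below was not tested. The library fl/fl 5 stood apart from its group with the lowest adipocyte sum and the highest macrophage sum of the fl/fl group (15973 and 2887 CPM). The library iADKO 6 stood apart in the opposite sense, with the highest adipocyte sum and the lowest macrophage sum of the iADKO group (16082 and 2046 CPM). No skeletal muscle or progenitor marker passed the test between genotypes. The highest sums of both lists among all 13 libraries were those of fl/fl 5 (472 and 4699 CPM). Skeletal muscle sums ran from 17.8 to 472 CPM in fl/fl and from 11.6 to 245 CPM in iADKO.

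The 5 PDH subunits, *Pdk1* and *Pdk2* were lower in iADKO pmWAT, while *Pdk3* was higher and *Pdk4* and *Pdp1* did not pass the test. Of the 10 genes, 7 fell, 1 rose and 2 did not pass an adjusted p under 0.05 (edgeR quasi-likelihood test, Benjamini-Hochberg adjustment over 16753 genes). Across all genes tested, 30.5% were called in either direction, 16.3% lower and 14.1% higher. The median log2 fold change was -0.64 over the 10 genes and 0.03 over all genes. In 3 of the 10 genes (*Pdk1*, *Pdk2* and *Pdk3*), the values of the groups did not overlap, against 6.64% of all genes. Without fl/fl 5 and iADKO 6, an analysis added after the values were seen, the same count of 8 genes was called, 7 lower and 1 higher. The library names carry numbers that fall into 5 runs, and with these runs as a block edgeR called 0 of the 10 at an adjusted p under 0.05 and 8 at an unadjusted p under 0.05. The same block left 54 of all 16753 genes called, and 4000 of them had an unadjusted edgeR p under 0.05.

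**Figure D1:**
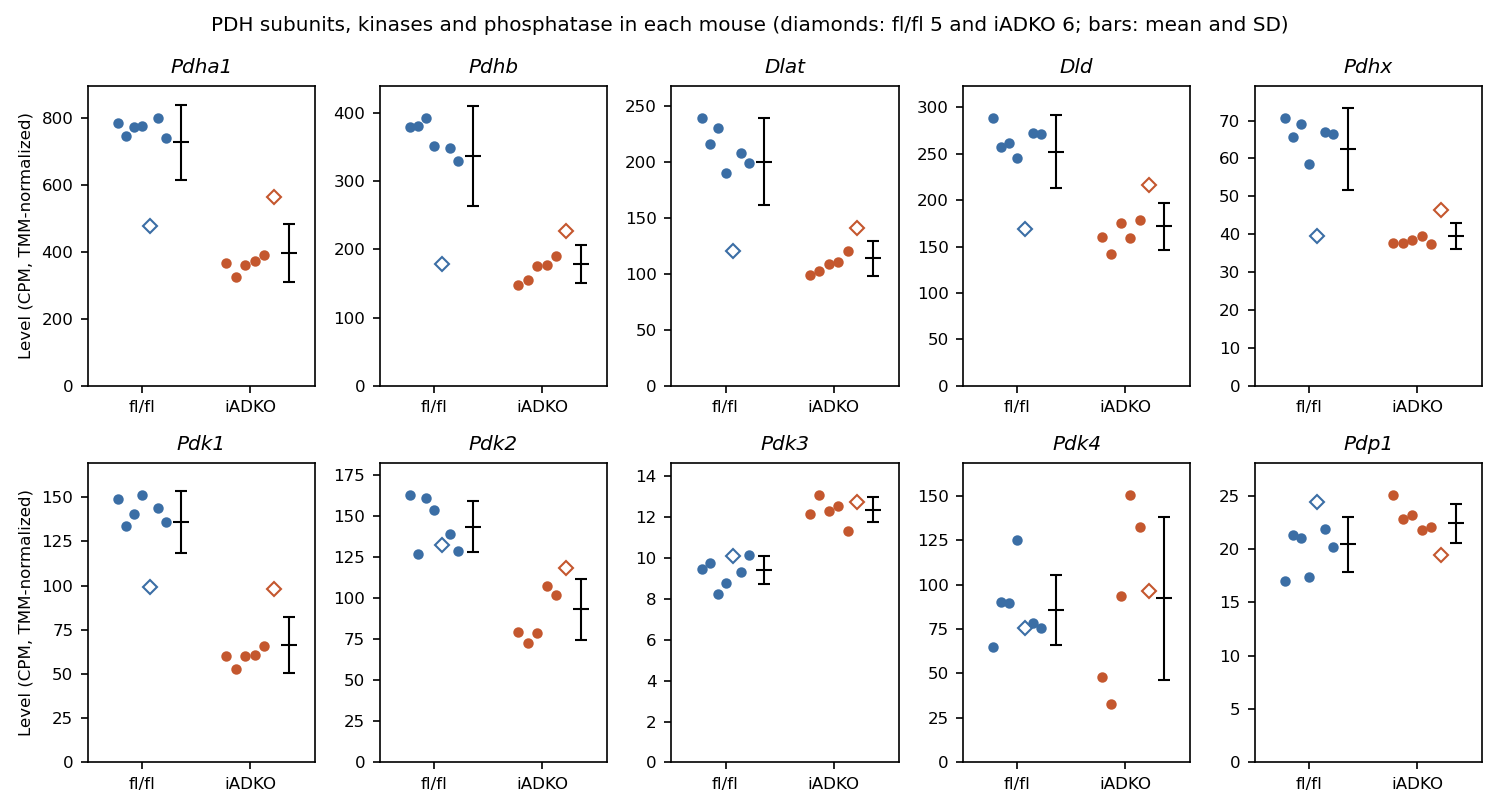
Level of each of the 10 genes in each mouse, in TMM-normalized CPM on a linear axis from 0, with the 7 fl/fl mice in blue, the 6 iADKO mice in orange, diamonds for fl/fl 5 and iADKO 6, and bars for the mean and SD. The 5 subunits, *Pdk1* and *Pdk2* lay lower in iADKO, *Pdk3* lay between 11.3 and 13.1 CPM in iADKO against 8.26 to 10.1 CPM in fl/fl, and *Pdk4* spread from 32.7 to 151 CPM in iADKO.

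E1 levels were lower in iADKO for both of its subunits. *Pdha1* (ENSMUSG00000031299; GRCm39 chromosome X, 158904237 to 158921426, minus strand) encodes the alpha subunit that the kinases phosphorylate. It ranged from 478 CPM over a median of 774 to 801 CPM in fl/fl, and from 324 over 370 to 566 CPM in iADKO. All fl/fl mice but fl/fl 5 lay at 741 CPM or more and all iADKO mice but iADKO 6 at 391 CPM or less, so the overlap of the groups came from these 2 libraries. On average *Pdha1* was at 729 ± 113 CPM in fl/fl (SD, n = 7) and at 397 ± 85.8 CPM in iADKO (SD, n = 6). *Pdha1* fell by 45.5%, a log2 fold change of -0.88 (standard error 0.14, edgeR adjusted p = 0.000747), and the log2 fold change was -1.11 without the 2 libraries and -0.57 with 1 surrogate variable from sva as a covariate. *Pdhb* (ENSMUSG00000021748; chromosome 14, 14296739 to 14304802, plus strand), the beta subunit, ranged from 178 over 351 to 392 CPM in fl/fl and from 147 over 176 to 227 CPM in iADKO. Again fl/fl 5 was the lowest control and iADKO 6 the highest iADKO mouse, and iADKO 5, at 190 CPM, also lay above fl/fl 5. *Pdhb* fell by 46.9%, a log2 fold change of -0.91 (standard error 0.16, edgeR adjusted p = 0.00135), and of -1.12 without the 2 libraries and -0.51 with the surrogate variable.

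The core and E3 components were lower as well, by smaller steps for E3 and its binding protein. *Dlat* (ENSMUSG00000000168; chromosome 9, 50543457 to 50571277, minus strand), which encodes the E2 acetyltransferase, ranged from 120.5 over 208 to 239 CPM in fl/fl and from 98.9 over 110.3 to 142 CPM in iADKO. *Dld* (ENSMUSG00000020664; chromosome 12, 31379323 to 31401452, minus strand), the E3 enzyme that PDH shares with its sister complexes, ranged from 169 over 262 to 288 CPM in fl/fl and from 142 over 168 to 216 CPM in iADKO. *Pdhx* (ENSMUSG00000010914; chromosome 2, 102849769 to 102904060, minus strand), the E3-binding protein, ranged from 39.6 over 66.4 to 70.6 CPM in fl/fl and from 37.3 over 38.1 to 46.5 CPM in iADKO. In each of these genes fl/fl 5 was the lowest control and iADKO 6 the highest iADKO mouse. In *Dlat* and *Pdhx* the groups overlapped only through this pair. In *Dld*, iADKO 3 and iADKO 5, at 175 and 178 CPM, also lay above fl/fl 5. *Dlat* fell by 43.2% (log2 fold change -0.82, standard error 0.14, edgeR adjusted p = 0.00099). *Dld* fell by 31.8% (log2 fold change -0.55, standard error 0.12, edgeR adjusted p = 0.0038), and *Pdhx* fell by 36.6% (log2 fold change -0.66, standard error 0.11, edgeR adjusted p = 0.00122). Without the 2 libraries the log2 fold changes of *Dlat*, *Dld* and *Pdhx* were -1.0, -0.73 and -0.82. With the surrogate variable they were -0.47, -0.30 and -0.39, and *Dld* no longer passed (edgeR adjusted p = 0.0732).

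Among the kinases, *Pdk1* and *Pdk2* fell and *Pdk3* rose. *Pdk1* (ENSMUSG00000006494; chromosome 2, 71703488 to 71734202, plus strand), a kinase known as a target of hypoxia-inducible factor, ranged from 99.1 over 140.3 to 151 CPM in fl/fl and from 52.9 over 60.5 to 97.9 CPM in iADKO. Every iADKO mouse lay below every control, although iADKO 6 and fl/fl 5 nearly touched at 97.9 and 99.1 CPM. *Pdk1* fell by 51.3%, the largest decrease of the 10 genes (log2 fold change -1.04, standard error 0.13, edgeR adjusted p = 0.000304), and only 1.56% of the genes tested had a log2 fold change at or below it. *Pdk2* (ENSMUSG00000038967; chromosome 11, 94914929 to 94932242, minus strand), a widely expressed kinase, ranged from 127 over 139 to 163 CPM in fl/fl and from 72.7 over 90.6 to 118 CPM in iADKO. The groups did not overlap, and here fl/fl 5, at 132 CPM, lay within the control range. *Pdk2* fell by 35.1% (log2 fold change -0.62, standard error 0.12, edgeR adjusted p = 0.00175).

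*Pdk3* (ENSMUSG00000035232; chromosome X, 92789513 to 92876389, minus strand), the kinase gene with the fewest reads, moved the other way. It was covered by 143 to 200 reads per fl/fl library and 237 to 281 per iADKO library. Its level ranged from 8.26 over 9.48 to 10.1 CPM in fl/fl and from 11.3 over 12.4 to 13.1 CPM in iADKO. Every iADKO mouse lay above every control, with fl/fl 5 at 10.1 CPM and iADKO 6 at 12.8 CPM, each inside the range of its own group. *Pdk3* was 1.31-fold higher in iADKO (log2 fold change 0.39, standard error 0.067, edgeR adjusted p = 0.00107), and the log2 fold change was 0.38 without the 2 libraries. The exact two-sided permutation test over mice gave p = 0.000583 for *Pdk1*, *Pdk2* and *Pdk3* each, the smallest value that 7 against 6 mice allow.

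*Pdk4* (ENSMUSG00000019577; chromosome 6, 5483097 to 5496339, minus strand), the kinase gene of the fasting response, had the widest spread relative to its mean among iADKO mice of the 10 genes. The fl/fl mice, in the order of their replicate numbers, gave 65.0, 90.1, 89.8, 125, 75.4, 78.5 and 75.8 CPM. The iADKO mice, in the order of their replicate numbers, gave 48.2, 32.7, 93.6, 151, 132 and 96.3 CPM. The 2 lowest and the 2 highest of all 13 values were iADKO mice, and the control range lay inside the iADKO range. On average *Pdk4* was at 85.7 ± 19.4 CPM in fl/fl (SD, n = 7) and at 92.3 ± 45.8 CPM in iADKO (SD, n = 6), and the log2 fold change was 0.11 with a standard error of 0.31 (edgeR adjusted p = 0.814). Leaving out iADKO 4 gave a log2 fold change of -0.09, and leaving out iADKO 5 gave -0.02.

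*Pdp1* (ENSMUSG00000049225; chromosome 4, 11957712 to 11966468, minus strand), which encodes the catalytic subunit of a phosphatase that reactivates PDH, ranged from 17.0 over 21.1 to 24.4 CPM in fl/fl and from 19.4 over 22.4 to 25.1 CPM in iADKO. The groups overlapped over most of their ranges, and the highest control was fl/fl 5 and the lowest iADKO mouse iADKO 6. The log2 fold change was 0.13 (standard error 0.085, edgeR adjusted p = 0.257). *Pdp2*, the other catalytic subunit, fell by 41.5% (50.5 ± 5.47 CPM in fl/fl, n = 7, and 29.5 ± 6.18 CPM in iADKO, n = 6; edgeR adjusted p = 0.000573). *Pdpr*, the regulatory subunit, fell by 28.6% (82.1 ± 6.37 and 58.6 ± 5.50 CPM; edgeR adjusted p = 0.000369). *Pdha2*, the E1 alpha gene of testis, was not among the identifiers of the count table and could not be tested.

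Within the runs of library numbers that held both genotypes, the 8 called genes kept their direction. The share of all called genes that did so is not given here. The 5 subunits and *Pdk1* correlated within genotype at r = 0.745 to 0.979, so their directions are not separate results. In numbers 722 to 727 (fl/fl 4 and 5, iADKO 4 and 6), which hold both libraries that stood apart, the log2 CPM difference, iADKO minus fl/fl, was -0.41 for *Pdha1*, -0.32 for *Pdhb*, -0.27 for *Dlat*, -0.13 for *Dld* and -0.16 for *Pdhx*. For the kinases it was -0.67 for *Pdk1*, -0.34 for *Pdk2* and 0.42 for *Pdk3*. The subunit differences in this run were smaller than those over all mice. In numbers 747 to 750 (fl/fl 1, 2 and 3, iADKO 2) it was -1.24, -1.30, -1.15, -0.92 and -0.86 for the 5 subunits in the same order, and -1.41, -1.04 and 0.51 for *Pdk1*, *Pdk2* and *Pdk3*. *Pdk4* differed by 0.31 in the first of these runs and by -1.30 in the other. The remaining runs held 1 genotype each, 706 to 707 only fl/fl and 765 and 974 to 975 only iADKO, so that there run and genotype cannot be told apart. The labels do not say what the numbers mark, and they give all 13 libraries the same batch date.

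The start regions of 4 of these genes are shown because the genes moved differently: *Pdhb* and *Pdk1* fell, *Pdk3* rose and *Pdk4* did not pass the test. Each window holds 250 bases before and 50 after the start of the GENCODE canonical transcript in GRCm39, in the direction of transcription. Capitals mark exact matches, on either strand, to CCAAT (the CCAAT box), GGGCGG (the GC box) and ACGTG (a form of the core of the hypoxia response element).
Pdhb, chr14:14296489-14296788, plus strand: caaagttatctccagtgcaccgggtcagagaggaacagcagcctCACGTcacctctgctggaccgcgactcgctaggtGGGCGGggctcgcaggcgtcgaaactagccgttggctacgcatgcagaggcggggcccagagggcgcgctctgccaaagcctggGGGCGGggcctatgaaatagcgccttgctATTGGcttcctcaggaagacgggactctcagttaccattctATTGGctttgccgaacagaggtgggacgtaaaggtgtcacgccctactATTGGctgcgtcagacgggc
Pdk1, chr2:71703238-71703537, plus strand: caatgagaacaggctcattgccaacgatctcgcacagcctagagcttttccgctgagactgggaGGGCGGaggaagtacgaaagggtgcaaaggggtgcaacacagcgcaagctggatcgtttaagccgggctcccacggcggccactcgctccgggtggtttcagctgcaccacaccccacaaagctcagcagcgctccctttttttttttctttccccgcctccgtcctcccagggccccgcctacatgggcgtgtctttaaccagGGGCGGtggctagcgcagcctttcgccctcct
Pdk3, chrX:92875878-92876177, minus strand: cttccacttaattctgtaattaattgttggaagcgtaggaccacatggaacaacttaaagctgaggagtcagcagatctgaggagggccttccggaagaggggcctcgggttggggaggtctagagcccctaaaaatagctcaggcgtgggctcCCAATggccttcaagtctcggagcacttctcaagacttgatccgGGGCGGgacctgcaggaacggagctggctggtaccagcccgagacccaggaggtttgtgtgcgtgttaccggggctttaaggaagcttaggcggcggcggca
Pdk4, chr6:5496281-5496580, minus strand: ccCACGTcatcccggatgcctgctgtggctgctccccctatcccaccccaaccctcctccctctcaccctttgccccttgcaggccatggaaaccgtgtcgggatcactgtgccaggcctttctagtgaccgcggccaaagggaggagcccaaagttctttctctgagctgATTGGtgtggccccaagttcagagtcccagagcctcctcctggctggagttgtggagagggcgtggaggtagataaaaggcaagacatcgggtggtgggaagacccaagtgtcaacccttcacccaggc
CCAAT was present in 6 of the 10 windows, those of *Pdhb*, *Dld*, *Pdk2*, *Pdk3*, *Pdk4* and *Pdp1*, and in 39.9% of the same windows of 21757 protein-coding genes. GGGCGG was present in 6 of 10 (*Pdhb*, *Dlat*, *Pdhx*, *Pdk1*, *Pdk3* and *Pdp1*) and in 42.5% of all. ACGTG was present in 3 of 10 (*Pdhb*, *Pdk2* and *Pdk4*) and in 20.7% of all. The letters AAGGTCA (a site of estrogen-related receptors), GTAAACA (a FOXO site) and GCGCATGC (the core of the NRF1 site) were in none of the 10 windows and in 4.48%, 3.15% and 3.69% of all. In *Pdk2* the ACGTG matches of both strands overlap in 1 palindrome, CACGTG. The *Pdk1* window holds 2 GC boxes and no ACGTG. It does hold the letters GCGTG, and forms of the hypoxia core other than ACGTG were not searched for in any window. These matches are letters in a short window and were not tied to the expression values.

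To ask whether the genes kept their proportions, each was divided by *Pdha1* within its own library. A difference of 0 on this log2 scale means that a gene and *Pdha1* moved by the same factor. As *Pdha1* itself had a log2 fold change of -0.88, a gene that did not move gives a difference of about that size above 0. Of 9 ratios 6 differed between genotypes at an adjusted p under 0.05 (exact two-sided permutation test over mice, adjusted over all 16752 genes divided by *Pdha1* in the same way), against 90.2% of all genes. The E1 ratio *Pdhb*/*Pdha1* was -1.14 ± 0.156 in fl/fl and -1.14 ± 0.137 in iADKO, a difference of -0.0066 (adjusted p = 0.953), and *Dlat*/*Pdha1* differed by 0.09 (adjusted p = 0.255). These ratios overlapped almost fully between the groups. *Dld*/*Pdha1* was higher in every iADKO mouse (-1.39 to -1.05) than in any control (-1.66 to -1.45), by 0.33 (adjusted p = 0.00373). *Pdhx*/*Pdha1* was higher by 0.24 (adjusted p = 0.0135), with overlap.

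Among the kinases, *Pdk1* stood lower against *Pdha1* in every iADKO mouse (-2.62 to -2.53) than in any control (-2.48 to -2.27), by -0.17 (adjusted p = 0.00373). The *Pdk1* ratio varied little within the groups, with SDs of 0.0779 in fl/fl and 0.0322 in iADKO. *Pdk2*/*Pdha1* differed by 0.24 (adjusted p = 0.076), and by 0.35 (adjusted p = 0.00275) without fl/fl 5 and iADKO 6. *Pdk3*/*Pdha1* was 1.27 higher in iADKO on the log2 scale (adjusted p = 0.00373), with ranges of -6.53 to -5.55 in fl/fl and -5.46 to -4.62 in iADKO that did not overlap. *Pdk4*/*Pdha1* was 0.83 higher (adjusted p = 0.0343, and 0.0095 to 0.0696 with each mouse left out), from -3.59 over -3.11 to -2.63 in fl/fl and from -3.31 over -2.25 to -1.31 in iADKO. The ranges of *Pdk4*/*Pdha1* overlapped, and iADKO 2, at -3.31, lay low in the control range. *Pdp1*/*Pdha1* was 1.02 higher (adjusted p = 0.00589), with overlap of the groups through fl/fl 5 at -4.29 and iADKO 6 at -4.86. The levels of *Pdk4* and *Pdp1* themselves did not pass the edgeR test, and their ratio differences lay near the size of the fall of *Pdha1*.

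**Figure D2:**
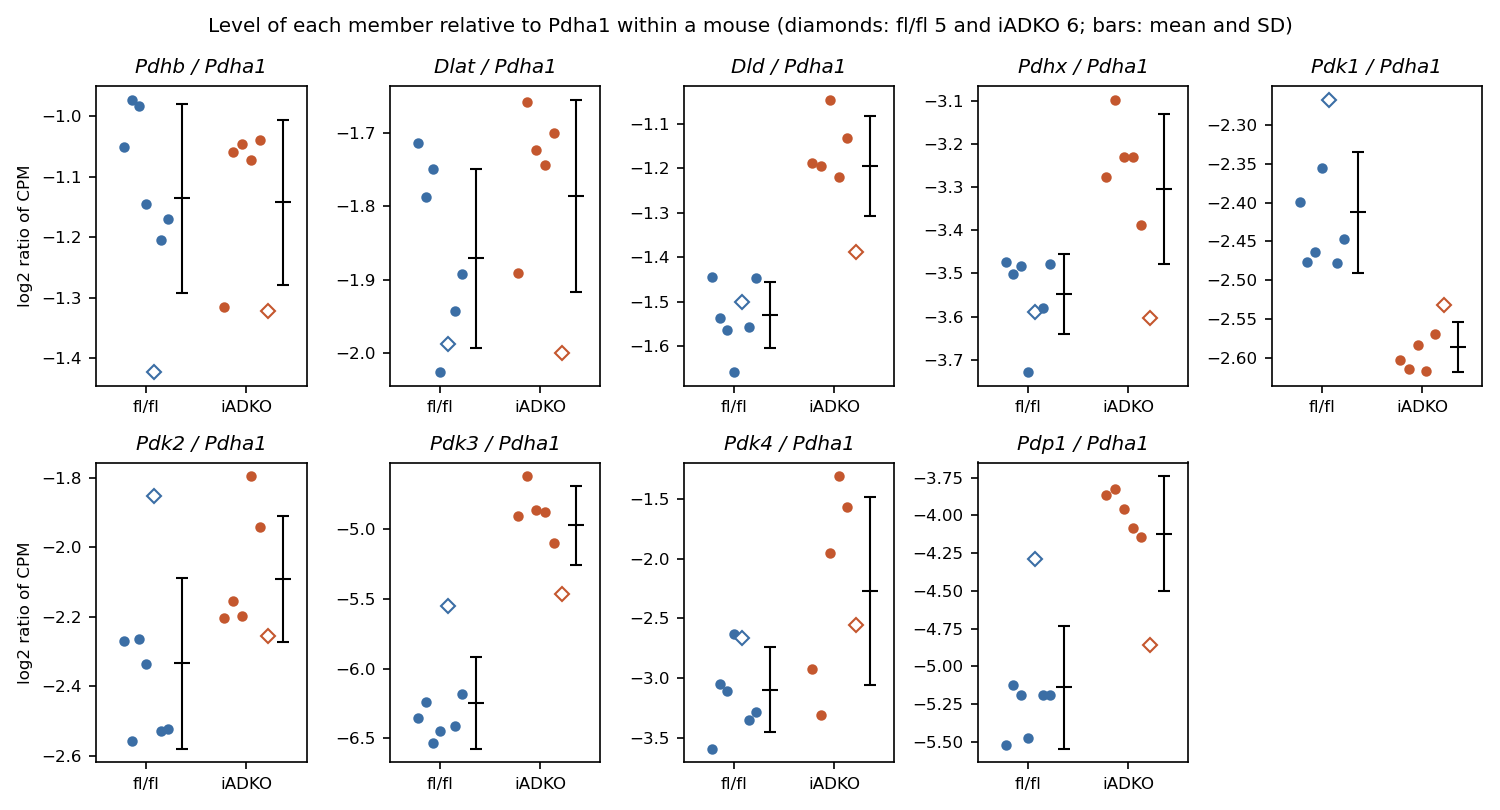
Log2 ratio of each of 9 genes to *Pdha1* within a mouse, with fl/fl in blue, iADKO in orange, diamonds for fl/fl 5 and iADKO 6, and bars for the mean and SD. *Pdhb* and *Dlat* lay at like heights in both groups, *Dld* and *Pdk3* lay higher in every iADKO mouse, and *Pdk1* lay lower in every iADKO mouse.

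*Pdk1* followed *Pdha1* from mouse to mouse within both genotypes by Pearson's r, while neither rank correlation passed an adjusted p under 0.05. Pearson's r of their log2 CPM was 0.974 in fl/fl (exact permutation p = 0.00734, adjusted p = 0.0489 over 20 relations, n = 7) and 0.999 in iADKO (exact permutation p = 0.00139, adjusted p = 0.0278, n = 6). Spearman's rho was 0.821 (exact permutation p = 0.0341, adjusted p = 0.228) and 1 (exact permutation p = 0.00278, adjusted p = 0.0556). Without the 2 libraries farthest from the median of *Pdha1* (fl/fl 5 and 7, iADKO 6 and 2), r was 0.637 over 5 fl/fl mice and 0.957 over 4 iADKO mice. *Pdk2* followed *Pdha1* in iADKO (r = 0.793, exact permutation p = 0.00417, adjusted p = 0.0417; rho = 0.943, exact permutation p = 0.0167, adjusted p = 0.167; n = 6; r = 0.71 without the 2 libraries). In fl/fl, *Pdk2* gave r = 0.401 (exact permutation p = 0.521, adjusted p = 0.548, n = 7), and the difference between the genotypes was not tested. *Pdha1* and the summed adipocyte markers gave r = 0.887 in fl/fl (exact permutation p = 0.0482, adjusted p = 0.1; rho = 0.571, exact permutation p = 0.2, adjusted p = 0.308; n = 7) and 0.685 without fl/fl 5 and 7. In iADKO they gave r = 0.865 (exact permutation p = 0.0833, adjusted p = 0.122; rho = 0.2, exact permutation p = 0.714, adjusted p = 0.751; n = 6) and -0.933 without iADKO 6 and 2, so this relation rested on those libraries. *Pdk4* and *Pdha1* gave r = 0.216 in fl/fl (exact permutation p = 0.51, adjusted p = 0.548, n = 7) and 0.396 in iADKO (exact permutation p = 0.458, adjusted p = 0.539, n = 6).

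**Figure D3:**
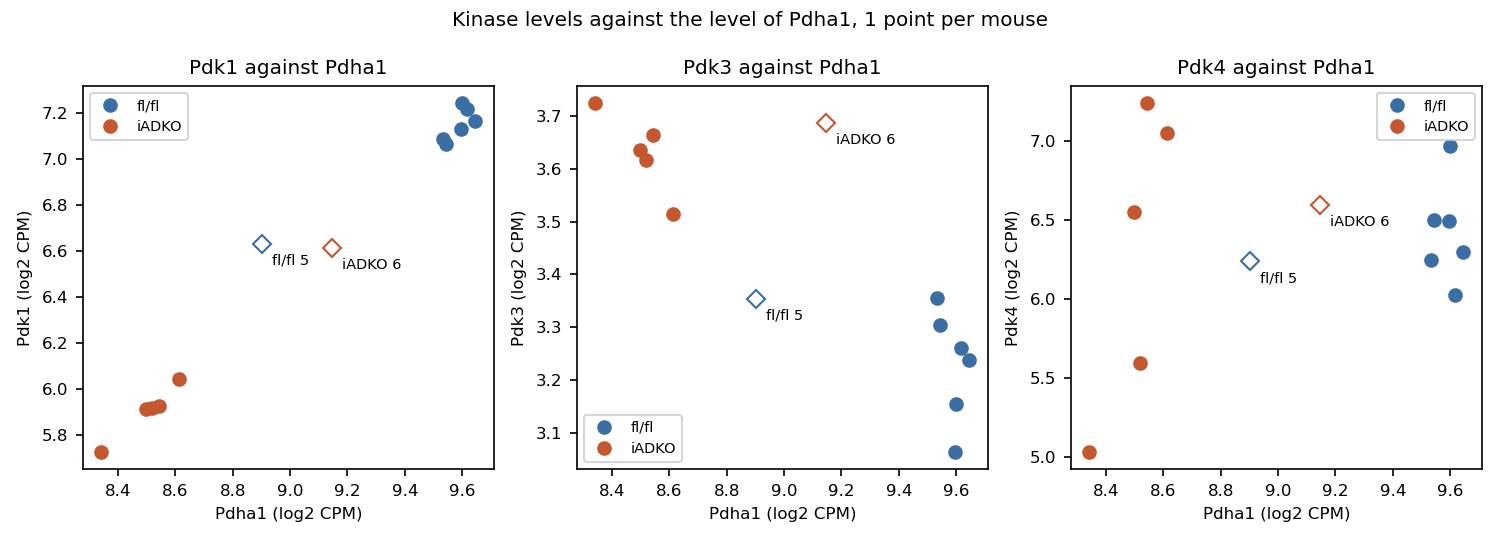
Log2 CPM of *Pdk1*, *Pdk3* and *Pdk4* (vertical axes) against that of *Pdha1* (horizontal axes), with 1 point per mouse, fl/fl in blue, iADKO in orange and fl/fl 5 and iADKO 6 as diamonds. *Pdk1* was high in mice with high *Pdha1*, *Pdk3* was higher in all iADKO mice including iADKO 6, and *Pdk4* spread vertically among iADKO mice at nearly the same *Pdha1* level.

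Over all 13 libraries, the genes whose log2 CPM was most like that of *Pdha1* among 13853 searched were *Abcb8* (r = 0.995), *Sdha* (0.993), *Pdk1* (0.991), *Coq9* (0.989) and *Pcx* (0.989). *Sdha* encodes a subunit of succinate dehydrogenase, *Coq9* a factor of coenzyme Q synthesis and *Pcx* pyruvate carboxylase. For *Pdk4* the closest were *4833411C07Rik* (r = 0.827), *Gpr19* (0.811), *Rnf125* (0.798), *Pck2* (0.795) and *Dpep1* (0.783). With every library kept, the likeness to *Pdha1* held within each genotype (for *Abcb8*, r = 0.987 in fl/fl and 0.975 in iADKO). So did that of *4833411C07Rik* to *Pdk4* (r = 0.820 in fl/fl and 0.973 in iADKO). For *Pdk1*, r with *Pdha1* went from 0.974 to 0.637 in fl/fl without fl/fl 5 and 7. In iADKO it went from 0.999 to 0.957 without iADKO 6 and 2. Such values are not given here for *Abcb8*, *Sdha*, *Coq9* and *Pcx*, so their dependence on those libraries is not known. *Gpr19*, *Pck2* and *Dpep1* gave 0.512, 0.555 and 0.543 with *Pdk4* in fl/fl and 0.924, 0.839 and 0.963 in iADKO, and *Rnf125* gave 0.0771 and 0.917. These correlations share the libraries and the genotype difference and are given as a description.

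Levels of different genes were compared per kilobase of exon. With the union of a gene's exons as its length, *Pdha1* (136 ± 21.1 CPM per kb in fl/fl, n = 7) and *Pdhb* (68.7 ± 15.0) were the highest of the 10 genes in both genotypes, and *Pdk3* the lowest (1.14 ± 0.0837 in fl/fl and 1.5 ± 0.0745 in iADKO). *Pdk1* and *Pdk2* (15.5 ± 1.99 and 16.7 ± 1.80 CPM per kb in fl/fl) did not differ beyond their spread with this length, nor did *Pdk4* and *Dld* in iADKO (24.3 ± 12.1 and 24.3 ± 3.58). With the canonical transcript as length, *Pdk1* and *Pdk2* were at 25.9 ± 3.33 and 62.2 ± 6.71 CPM per kb in fl/fl, beyond their spread, and *Pdk4* and *Dld* at 24.5 ± 12.2 and 38.3 ± 5.64 in iADKO. In the sum over the 4 kinases, the share of *Pdk4* was 40.1% ± 4.96 in fl/fl (n = 7) and 52.1% ± 12.2 in iADKO (n = 6), that of *Pdk1* 27.7% ± 2.83 and 18.2% ± 5.31, that of *Pdk2* 30.0% ± 3.18 and 25.8% ± 5.64, and that of *Pdk3* 2.08% ± 0.361 and 3.81% ± 1.57. The order of *Pdk2* and *Pdk4* also turned on the length used. With the canonical transcript, *Pdk2* led with 54.3% ± 3.28 in fl/fl and 49.6% ± 5.05 in iADKO, and *Pdk4* held 19.8% ± 3.31 and 28.2% ± 9.33. With the longest transcript, the mean share of *Pdk2* was above that of *Pdk4* in fl/fl (39.9% and 27.4%) and below it in iADKO (36.3% and 38.3%). Of the kinases, *Pdk3* had the smallest share with each of the 3 lengths tried. The iADKO shares of *Pdk4* by union of exons ran from 34.9% in iADKO 2 to 65.5% in iADKO 4, and those of the controls from 31.7% to 47.7%.

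**Figure D4:**
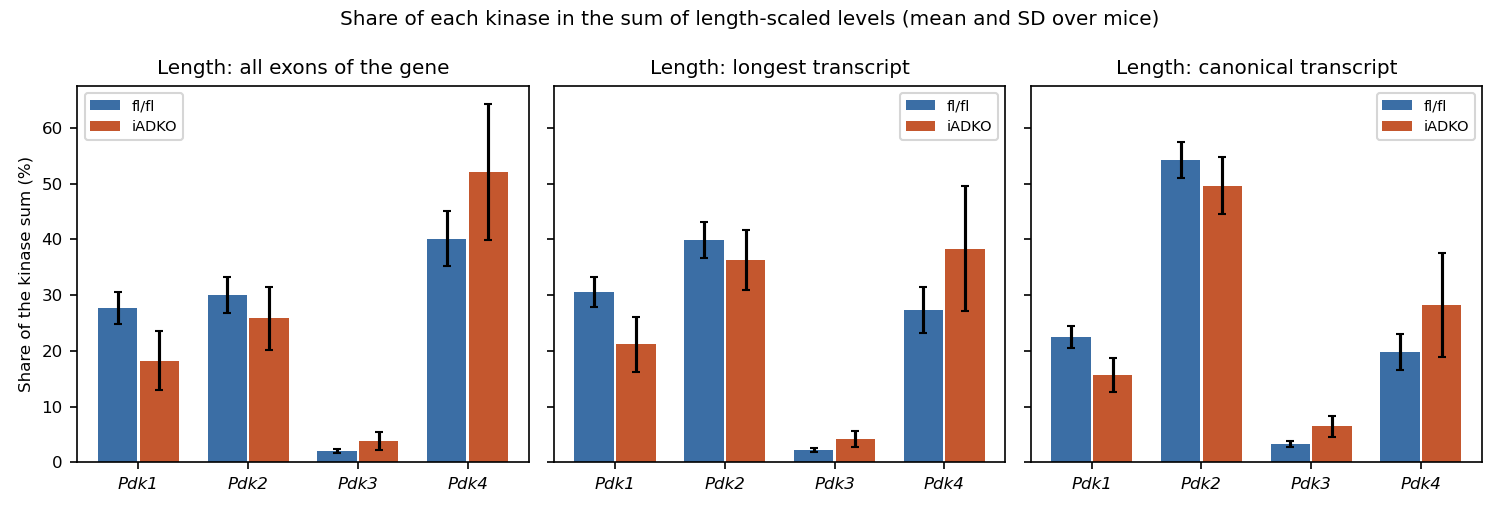
Share of each kinase in the sum of the length-scaled levels of the 4 kinases, in percent, as means over 7 fl/fl (blue) and 6 iADKO (orange) mice with SD, under 3 choices of gene length. The mean share of *Pdk1* was lower and that of *Pdk4* higher in iADKO in each panel, and *Pdk4* led with the union of exons and *Pdk2* with the canonical transcript.

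Genes that feed pyruvate to PDH or take it elsewhere were mostly lower in iADKO, with 7 of 11 lower, 0 higher and a median log2 fold change of -0.61, where 16.3% of all genes were lower and the median was 0.03. Over this list and the other 7 lists of pathway genes, 54 of 83 genes were called. With 1 surrogate variable 27 were called, beside 1646 of all 16753 genes. With the runs of library numbers as a block 1 (*Slc19a2*) was called and 42 had an unadjusted p under 0.05 (edgeR). In that fit 54 of all 16753 genes were called and 4000 had an unadjusted p under 0.05. *Mpc1* and *Mpc2*, the mitochondrial pyruvate carrier, fell by 1.07 and 0.61 on the log2 scale (edgeR adjusted p = 0.00171 and 0.00846). *Pcx*, which carboxylates pyruvate to oxaloacetate, fell from 2352 ± 453 CPM (n = 7) to 899 ± 243 CPM (n = 6), a log2 fold change of -1.39 (edgeR adjusted p = 0.000273). *Me1*, the cytosolic malic enzyme that regenerates pyruvate, fell by 1.94, *Gpt2*, which interconverts pyruvate and alanine, by 1.21, *Ldha* by 0.70 and *Pkm* by 0.37 on the log2 scale. *Ldhb* and the monocarboxylate carriers *Slc16a1*, *Slc16a3* and *Slc16a7* did not pass the test, with log2 fold changes of 0.04, 0.22, 0.38 and -0.25.

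Downstream, all 8 genes of acetyl-CoA use and citrate export passed the test, 7 lower and 1 higher, with a median of -1.11. Of all genes tested, 30.5% passed. With 1 surrogate variable 5 of these 8 passed, beside 1646 of all 16753 genes. *Acss2*, which makes acetyl-CoA from acetate in the cytosol, fell by 2.04 on the log2 scale, and *Acaca*, the acetyl-CoA carboxylase, fell by 1.84. *Acly*, which splits citrate, fell by 1.64 and *Slc25a1*, the citrate carrier, by 1.44. *Crat* and *Cs* fell by 0.76 and 0.49. *Acss1*, the mitochondrial acetate enzyme, was the one that rose, from 22.0 ± 1.83 CPM (n = 7) to 25.8 ± 1.5 CPM (n = 6), a log2 fold change of 0.23 (edgeR adjusted p = 0.0143).

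The sister dehydrogenases that share *Dld* and the lipoate chemistry gave 8 of 12 lower, 0 higher and a median of -0.46. Of all genes tested, 16.3% were lower and 14.1% higher. With 1 surrogate variable 6 of the 12 were called, beside 1646 of all 16753 genes. *Dhtkd1*, *Ogdh* and *Dlst* of the 2-oxoadipate and 2-oxoglutarate dehydrogenases fell by 0.89, 0.68 and 0.49 on the log2 scale. *Bckdhb*, *Bckdha*, *Dbt* and the kinase *Bckdk* of the branched-chain complex fell by 0.77, 0.74, 0.55 and 0.37, and *Gcsh* of the glycine cleavage system by 0.42. *Ogdhl*, *Ppm1k*, *Gldc* and *Amt* did not pass (log2 fold changes 0.19, -0.19, 0.86 and 0.10). Of 19 genes of lipoate and cofactor supply, 17 were tested, of which 13 fell and 1 rose, with a median of -0.36. These counts stand against the same shares of all genes. With 1 surrogate variable 5 were called, beside the same 1646 of all genes. *Mecr*, of mitochondrial fatty acid synthesis, from which lipoate is built, fell by 0.99 and *Lipt1*, a lipoyltransferase, by 0.65. *Slc19a2*, a thiamine transporter of the cell surface, rose from 11.2 ± 1.44 CPM (n = 7) to 20.7 ± 2.72 CPM (n = 6), a log2 fold change of 0.89 (edgeR adjusted p = 0.000162), with no overlap between the groups. *Lipt2*, *Nfu1* and *Oxsm*, named after their values were seen, did not pass the test (log2 fold changes -0.19, -0.18 and -0.19).

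**Figure D5:**
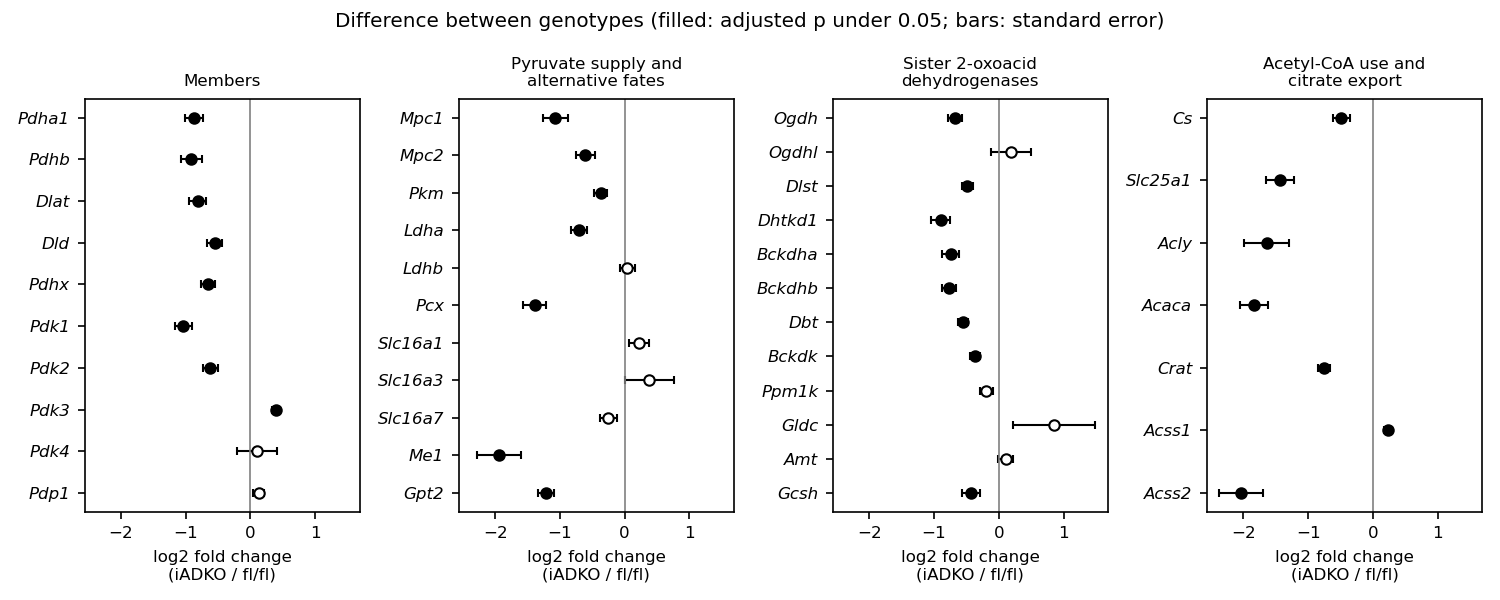
Log2 fold change, iADKO over fl/fl, with its standard error for the 10 genes and for genes of 3 neighbouring pathway lists, filled where the edgeR adjusted p was under 0.05. Most called genes lay left of 0, from -2.04 for *Acss2* upward, and *Pdk3* and *Acss1* were the called genes to the right of 0.

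The regulators of the kinase genes and the known fellow targets gave mixed counts, to be read against the 30.5% of all genes called in either direction. Of 13 regulators 11 were tested, and 6 of them fell and 0 rose (median -0.28), with 1 called with 1 surrogate variable. That setting called 1646 of all 16753 genes. *Ppara* fell by 0.81, *Pparg*, the master regulator of adipocytes, by 0.70, *Epas1*, which encodes HIF2 alpha, by 0.47 and *Ppard* by 0.28 on the log2 scale (edgeR adjusted p = 0.0165, 0.00405, 0.00345 and 0.0334). *Ppargc1a*, *Ppargc1b*, *Foxo1*, *Foxo3* and *Hif1a*, named after their values were seen, did not pass the test, with log2 fold changes of -0.44, -0.26, -0.31, 0.22 and -0.02. Of 12 PPAR and FOXO targets known beside *Pdk4*, 3 fell, 2 rose and 7 did not pass (median 0.14). Of these 12, 3 were called with no filter on low counts, or without fl/fl 1 or iADKO 1, 3, 4 or 5, and 1 with 1 surrogate variable. Apart from the surrogate variable, these settings called 3998 to 4461 of all genes, against 5104 in the main fit. *Plin2*, a lipid droplet protein, and *Cpt1a*, which admits fatty acids to mitochondria, rose by 0.54 and 0.36 (edgeR adjusted p = 0.00275 and 0.0293), and *Ucp3*, *Acadl* and *Acot2* fell by 0.58, 0.57 and 0.42. *Angptl4*, a target of PPARs that fasting also induces, gave 0.29 (edgeR adjusted p = 0.45). Of 10 HIF targets known beside *Pdk1*, 3 fell, 1 rose and 6 did not pass (median -0.17). *Vegfa*, *Bnip3* and *Hk2* fell by 0.86, 0.78 and 0.75, and *Slc2a1*, the basal glucose transporter, rose by 0.45. Without fl/fl 5 or without iADKO 6, 7 of these 10 were called, and with 1 surrogate variable 2. The calls over all genes also rose, from 5104 to 6604 without fl/fl 5 and to 5737 without iADKO 6.

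The exons of 6 of the 10 genes overlap exons of a protein-coding gene on the opposite strand in GENCODE, and the sources used here do not say whether reads were counted by strand. The overlap was 716 of 5340 exonic bases for *Pdha1* (*Map3k15*, at 9.09 and 6.39 CPM in fl/fl and iADKO), 303 of 7078 for *Dld* (*Lamb1*, at 414 and 373 CPM) and 544 of 8234 for *Pdk3* (*Pcyt1b*, at 1.16 and 1.23 CPM). It was 1363 bases for *Pdhb*, 1989 for *Pdk2* and 89 for *Pdhx*. *Dlat*, *Pdk1*, *Pdk4* and *Pdp1* had no such protein-coding neighbour.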

How the data were processed

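pmWAT libraries (strand-specific mRNA, 1 per mouse) were sequenced in pairs and aligned to mm39 with STAR 2.7.11a after FastQC 0.12.1, per the submitters' processing notes. The authors deposited raw counts per gene and log2 values made from them with DESeq2's regularized log (rlog). The counting tool, annotation and strand setting are not given in the sources used here. Identifiers were named with GENCODE vM39 (33184 of 33618 matched). In R 4.3.3, edgeR 4.0.16 filtered genes (filterByExpr), normalized by TMM and ran the robust quasi-likelihood test, with Benjamini-Hochberg adjustment over 16753 genes and a threshold of 0.05. Standard errors came from the fold change and its test statistic, and log2 CPM used a prior count of 2. Ratios to *Pdha1* were first planned with adjustment over the genes compared and were adjusted over all genes instead. Alternatives used DESeq2 1.42.0, limma 3.58.1 on the rlog values, sva 3.50.0, other filters, scalings and blocks, and each mouse left out. The fits were tested on simulated data. Counts per library had a median of 19505192, and errors are the spread between mice. Between mice of the same genotype, chi-square per degree of freedom was 8.90 to 98.7, so no library was a copy of another of its genotype.

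The 10 genes and all lists were chosen with earlier results of these data known. The genes named are the 10 and *Lmna*, every gene of a list of 12 or fewer, the 4 largest changes past the threshold in longer lists, and the 5 genes most correlated with *Pdha1* and with *Pdk4* at an average log2 CPM of at least 1. Some single-gene results under this rule are not reported here, although the list counts include them.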

Additional observations from a re-analysis of the deposited data

Results flagged for a closer look

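In 40 groups of values checked (the 10 genes, *Lmna* and the 9 ratios to *Pdha1*, in each genotype), 14 values lay far from the rest of their group by Dixon's criterion, which flags about 1 in 20 groups by chance. Of the 14, 9 were in fl/fl 5, 4 in iADKO 6 and 1 in fl/fl 4.

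In fl/fl 5, *Pdha1* (478 CPM), *Pdhb* (178 CPM), *Dlat* (120.5 CPM), *Dld* (169 CPM), *Pdhx* (39.6 CPM) and *Pdk1* (99.1 CPM) were each the lowest control by a wide gap. The log2 ratios to *Pdha1* of *Pdk2* (-1.85), *Pdk3* (-5.55) and *Pdp1* (-4.29) were each the highest control. In iADKO 6, *Pdha1* (566 CPM), *Pdhx* (46.5 CPM) and *Pdk1* (97.9 CPM) were the highest of their group, and *Pdp1*/*Pdha1* (-4.86) was the lowest. These are the libraries with the lowest adipocyte marker sum among controls (15973 CPM) and the highest among iADKO mice (16082 CPM). *Pdk4* in fl/fl 4 (125 CPM) was the highest control.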

How the results depend on the processing

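Alternatives were DESeq2 size factors, the DESeq2 Wald test, no filter, a minimum of 10 counts in every library, limma on rlog values, 1 surrogate variable, scaling without mitochondrially encoded genes, the replicate number as a block, runs of library numbers as a block, each mouse left out, and fl/fl 5 and iADKO 6 left out together, the last chosen after seeing the data. The 8 called genes kept their direction in all 23 settings and stayed past the threshold when any mouse was left out. With runs as a block, edgeR called 0 of the 10 (0 lower, 0 higher, 0 subunits), 8 at an unadjusted p under 0.05, and 1 of 83 pathway genes (*Slc19a2*) against 54 without it. Of all 16753 genes, 4000 had an unadjusted p under 0.05 in that fit. Only 2 runs hold both genotypes. With 1 surrogate variable 27 pathway genes and 1646 of all 16753 genes were called, and *Dld* no longer passed (edgeR adjusted p = 0.0732). The *Pdk4* log2 fold change was -0.0589 with the replicate block, -0.32 with runs as a block, -0.0430 with limma, and -0.0878 to 0.28 with each mouse left out. That of *Pdp1* was -0.0099 with 1 surrogate variable. *Pdhb*/*Pdha1* differed by -0.0547 to 0.0292 with each mouse left out, and *Pdk4*/*Pdha1* by 0.72 within numbers 722 to 727 and -0.0587 within 747 to 750. In these runs *Pdk3*/*Pdha1* differed by 0.83 and 1.76, *Pdp1*/*Pdha1* by 0.41 and 1.46, *Pdhx*/*Pdha1* by 0.24 and 0.39, *Pdk2*/*Pdha1* by 0.0689 and 0.21, *Pdk1*/*Pdha1* by -0.26 and -0.17, and *Dld*/*Pdha1* by 0.28 and 0.32. The *Pdk4*/*Pdha1* call was lost without fl/fl 1, 2, 3, 6 or 7 or iADKO 3, 4 or 5. *Lmna* passed without fl/fl 1 (adjusted p = 0.0411), without iADKO 6 (0.0208) and without both libraries that stood apart (0.0344). For these changes the cause was not tested.

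Same-numbered mice were not treated as pairs in the main test. Residuals correlated above 0.1 in 3 of 6 same-numbered pairs (mean 0.107) and in 6 of 36 other pairs (mean -0.02). Of 6 iADKO libraries, 2 correlated best with their own number. These values do not settle whether the replicate numbers mark pairs. With the replicate block, without fl/fl 7, 8 of the 10 genes were called, and 4833 of all genes. All genes called numbered 4005 without a filter, 1646 with 1 surrogate variable, 54 with runs as a block and 7192 without fl/fl 5 and iADKO 6, against 5104.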
